A study of Homo sapiens with 12 samples.

Results

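TPC-1 is an established human line from a papillary thyroid carcinoma and is known to carry a fusion of CCDC6 with the receptor tyrosine kinase RET. The results below are for TPC-1 cells exposed to selpercatinib, an inhibitor of the RET kinase, against the parent cells of the same line. The study sequenced RNA of TPC-1 and of the lung adenocarcinoma line LC-2/ad, each as parent and as treated cells, with 3 libraries in each of 4 groups. Of the 12 libraries, 6 are TPC-1. The treated TPC-1 cells had 48 h in 100 nM selpercatinib. The parent cells are labelled as receiving no treatment, and whether they received the solvent of the drug is not stated. Both TPC-1 groups were grown in RPMI-1640 with serum, and the labels set them apart by the drug and its time. No time in culture is given for the parent cells. Whether a group's 3 libraries are separate cultures is not stated, and the p-values below therefore measure only how much the libraries vary, which may be technical. TPC-1 is 1 line, and other thyroid lines were not measured.

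Values are TPM, a measure of transcript abundance which each gene's reads to its length and to the whole library. The members examined are 12825 of the 37247 genes in the table, those that averaged 1 TPM or more across the 6 libraries. A log2 fold change is the mean of log2(TPM + 1) in treated libraries minus that in parent libraries, given with its standard error (SE). A gene is called when the adjusted p of the limma test, Benjamini-Hochberg over all 12825 genes, is below 0.05, and "rose" and "fell" are kept for called genes. In a bulk sample, fewer cells with a transcript and less of it per cell cannot be told apart.

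RET passes signals through RAS and the kinase ERK, and ERK switches on a set of early transcription factors together with the phosphatases and adaptors that restrain it. NF-kB is a separate family of transcription factors, held in the cytoplasm by inhibitor proteins, which induces those inhibitors, chemokines, interleukins, survival genes and adhesion molecules. Both pathways act in thyroid carcinoma cells. The genes are described below by these roles, followed by growth factors, matrix, lineage, cell cycle and metabolism. Each list's count of called genes can be read against 3.75% of all tested genes called higher and 1.21% called lower.

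The lineage label was checked on transcripts of thyroid, of epithelium and of other cell types. PAX8, a transcription factor of thyroid follicular cells, lay between 154 and 285 TPM over the 6 libraries, and FOXE1, another, had a mean of 9.11 TPM in parent cells. The thyroid factor NKX2-1 was listed at 0 in each library. Thyroglobulin (TG), the TSH receptor and the iodide transporter SLC5A5 had means below 1 TPM in both groups. Of 10 thyroid transcripts 3 had a mean of at least 1 TPM, and of 6 epithelial ones 5 did, led by the keratins KRT7, KRT8 and KRT18. The other epithelial transcripts were low, with parent means of 4.33 TPM for EPCAM, 1.86 TPM for KRT19 and 0.434 TPM for CDH1. In LC-2/ad parent cells these were at 379, 1732 and 169 TPM. Of 12 markers of blood, endothelial and fibroblast cells 2 reached a mean of 1 TPM, the fibroblast and muscle transcripts ACTA2 and PDGFRB, and ACTA2 fell (-0.42 ± 0.10). The sum of the 12 ranged from 15.7 to 21.0 TPM in parent and from 13.4 to 17.2 TPM in treated libraries, and the haemoglobin gene HBB was at 0 in each. Other settings ended the call of ACTA2 (8 settings, adjusted p up to 0.168 without parent library 3).

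Between 12554 and 12967 genes reached 1 TPM in each library. Ribosomal protein genes took 18.1% ± 0.67 (SD, n = 3) of all TPM in parent and 16.8% ± 0.58 in treated libraries, and each treated library lay below each parent library (exact permutation p = 0.1, the smallest that 3 against 3 can give). The mitochondrial share, 6.97% ± 0.57 against 6.33% ± 0.49, overlapped between groups (exact p = 0.2). On the first principal component, 38.4% of the variance, the parent libraries scored -4.9 (library 1), -23.3 and -17.7, and the treated libraries 19.5, 17.9 and 8.4.

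The comparison asks how transcript levels in this line respond to inhibition of the RET kinase. Of the 12825 genes 481 rose (3.75%) and 155 fell (1.21%), together 4.96%. Most changes were small: 79 of the 636 called genes reached 1 on the log2 scale, 56 upward and 23 downward, and 44.5% of the called genes moved by less than 0.5. The median over all tested genes was 0.05. At an unadjusted p below 0.05 there were 2753 genes (21.5%), and the values of the groups did not overlap for 3313 (25.8%), among them each called gene. Calls were more frequent among abundant genes, 2.40% at 1 to 5 TPM, 4.22% at 5 to 50 TPM and 9.45% at 50 TPM or more, where the median SE was 0.06 against 0.19 at the low end. Parent library 1, which stands apart, bears on the count: without it 676 genes rose and 139 fell. With median-of-ratios scaling, which sets the median gene to no change, 420 rose and 254 fell, so that 62.3% of called genes were upward against 75.6%. Leaving out parent library 2 left 337 genes called, parent library 3 left 292, treated library 1 left 335 and treated library 2 left 339, and 255 of the 636 genes were called in each of the 6 fits without 1 library.

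**Figure D1:**
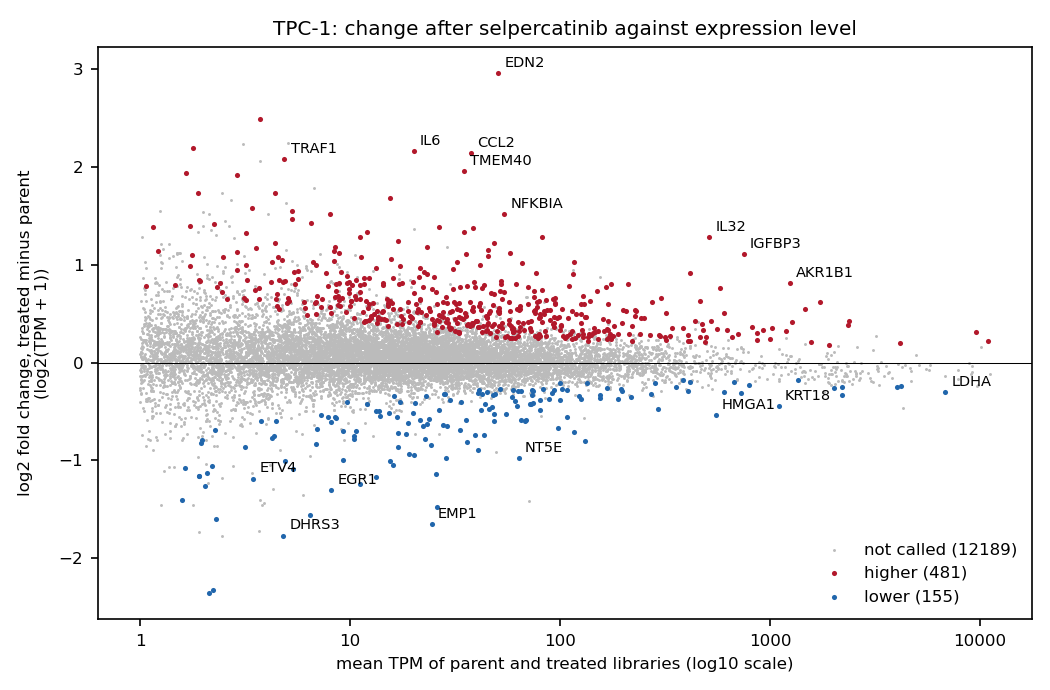
Log2 fold change (treated minus parent, vertical) against mean TPM (horizontal, log scale) for the 12825 tested genes of TPC-1. Red points are the 481 genes that rose, blue points the 155 that fell and grey points the others, and the band of genes not called narrows as TPM rises.

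**Figure D2:**
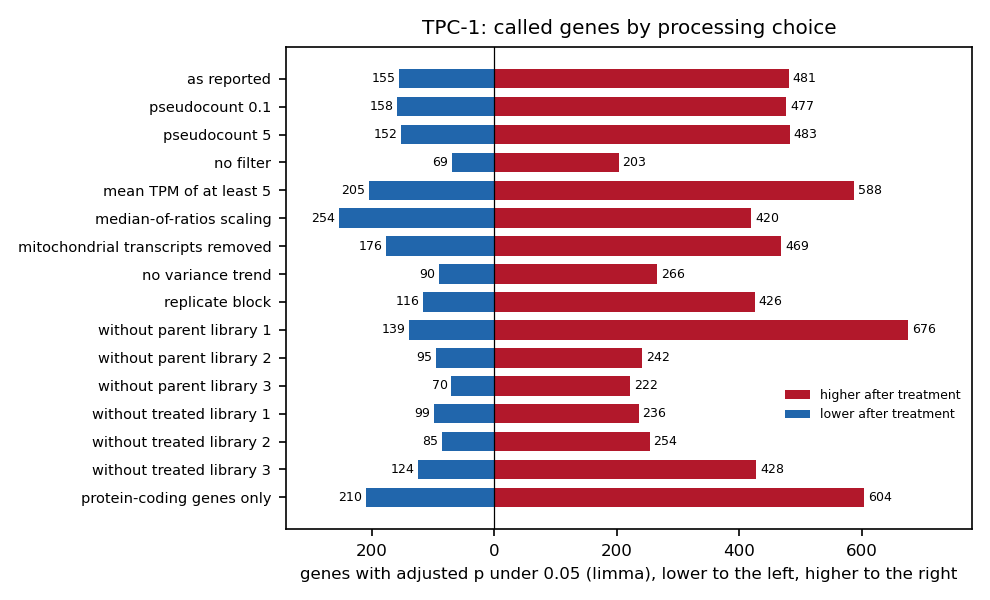
Number of genes called higher (red, to the right) and lower (blue, to the left) in TPC-1 as reported and under each other processing choice, on a linear axis. The counts lie between 222 and 676 upward over the fits without 1 library, and at 203 upward with no filter on TPM.

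Genes that ERK induces were lower in treated cells. Of 17 tested ERK feedback and target genes 9 fell and none rose, with a median log2 fold change of -0.68, against 1.21% of all tested genes called lower and a median of 0.05. Without 1 library between 4 (without parent library 3) and 6 (without parent library 1) of them fell, and the kinase EPHA4 (0.40 ± 0.16, not called with all libraries) was called higher without parent library 1. EGR1 (ENSG00000120738, chromosome 5, 138465490 to 138469315, GRCh38), an early zinc finger transcription factor, had 12.9, 12.1 and 11.1 TPM in the parent libraries and 4.55, 4.16 and 4.08 TPM in the treated libraries. The groups were well apart, with a log2 fold change of -1.31 ± 0.11 (SE; adjusted p 0.000461). ETV4, an ETS transcription factor, had 4.80, 5.18 and 5.54 TPM in the parent libraries and 1.41, 1.70 and 2.06 TPM in the treated libraries, and its groups did not overlap either. Its log2 fold change was -1.19 ± 0.15 (adjusted p 0.0034).

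Inhibitors of ERK signalling and further ETS factors were part of this set. DUSP6, the phosphatase that inactivates ERK, had 13.6, 11.3 and 13 TPM in the parent libraries and 5.69, 7.42 and 4.62 TPM in the treated libraries. The treated libraries differed among themselves by more than the parent libraries did, and the highest of them stayed below the lowest parent library (log2 fold change -1.0 ± 0.16, adjusted p 0.0082). PHLDA1 had 28.9, 25 and 27.0 TPM in the parent libraries and 14.5, 12.8 and 13.2 TPM in the treated libraries, with narrow groups and a log2 fold change of -0.95 ± 0.09 (adjusted p 0.000663). The adaptor SPRY4 (-1.08 ± 0.22), the ETS factor ETV1 (-1.06 ± 0.19), the adaptor SPRED1 (-0.70 ± 0.14), the phosphatase DUSP5 (-0.68 ± 0.16) and the adaptor SPRY2 (-0.54 ± 0.12) also fell. ETV5, a further ETS factor, had 12.3, 10.9 and 10.3 TPM in the parent libraries and 4.42, 7.65 and 8.37 TPM in the treated libraries, a log2 fold change of -0.68 ± 0.20 that was not called (adjusted p 0.0883). Not called were CCND1, the cyclin of early G1, at -0.35 ± 0.12, the AP-1 subunit FOSL1 at -0.13 ± 0.09 and MYC, a transcription factor of cell growth, at -0.06 ± 0.10. The call was lost in some of the 15 alternative settings for DUSP6 (adjusted p 0.0641 with no filter), SPRY4 (6 settings, adjusted p up to 0.0865 without parent library 2), ETV1 (4 settings, adjusted p up to 0.0618 without parent library 3), SPRED1 (4 settings, adjusted p up to 0.105 without parent library 3), DUSP5 (9 settings, adjusted p up to 0.149 with no filter and 0.144 without parent library 3) and SPRY2 (8 settings, adjusted p up to 0.131 without parent library 3). Other settings added a call for CCND1 (adjusted p 0.0229 without treated library 2).

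The promoter of EGR1 carries the binding motif of serum response factor, the factor through which ERK reaches this gene, and it is shown for that reason. These 250 bases precede the start of EGR1 on the plus strand, chr5:138465229-138465478 in GRCh38.p14 (RefSeq), with the 2 matches to the CArG box in capitals, at bases -105 to -96 and -83 to -74 from the start:
EGR1: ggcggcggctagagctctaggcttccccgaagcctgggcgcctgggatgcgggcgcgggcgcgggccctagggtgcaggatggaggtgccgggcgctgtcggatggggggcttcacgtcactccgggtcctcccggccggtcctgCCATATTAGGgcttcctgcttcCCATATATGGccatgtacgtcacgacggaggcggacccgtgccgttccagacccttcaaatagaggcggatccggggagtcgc
The letters searched were CC, then 6 of A or T, then GG, a palindromic form that reads alike on both strands. Of the 35116 promoters of 300 bases in the RefSeq set, 454 (1.29%) hold such a match, as do 152 of the tested genes with a promoter there (1.57%). The share was 3 of 108 among genes that fell (2.78%) and 16 of 346 among genes that rose (4.62%). A match describes letters and is not evidence of binding.

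Of 15 tested AP-1, EGR and early response genes outside the ERK list 2 rose and none fell, with a median of 0.22 and a lowest value of -0.43 ± 0.27 for KLF2, which was not called. FOS, EGR2 and EGR3 were too low to be tested, with means of 0.343, 0.121 and 0.0873 TPM in parent and 0.0354, 0.0446 and 0.0157 TPM in treated libraries. The genes that rose were IER5 (0.45 ± 0.09) and the AP-1 subunit JUND, which had 41.5, 46.1 and 45.0 TPM in the parent libraries and 54.2, 55.1 and 63.9 TPM in the treated libraries (0.38 ± 0.08). JUN (0.22 ± 0.07), JUNB (0.24 ± 0.09) and FOSL2 (0.31 ± 0.09) were not called. Other settings ended the call of IER5 (6 settings, adjusted p up to 0.0852 without treated library 1) and JUND (9 settings, adjusted p up to 0.108 without parent library 3). FOSL2 (adjusted p 0.00978 without parent library 1) gained a call under other settings.

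Genes of the NF-kB pathway were higher in treated cells. Of 21 tested subunits, inhibitors and feedback genes 11 rose and none fell, with a median of 0.45, against 3.75% of all tested genes called higher. Over the fits without 1 library the count lay between 8 (without parent library 3) and 12 (without parent library 1). NFKBIA (ENSG00000100906, chromosome 14, 35401511 to 35404749, GRCh38), which encodes the inhibitor IkB-alpha and is itself induced by NF-kB, had 29.9, 24.7 and 27.6 TPM in the parent libraries and 80.5, 91.4 and 70.1 TPM in the treated libraries. Each treated library was more than 2 times any parent library, and the log2 fold change was 1.52 ± 0.11 (adjusted p 0.000186). TRAF1, an adaptor of TNF receptors, had 1.35, 1.04 and 1.33 TPM in the parent libraries and 9.12, 8.55 and 7.76 TPM in the treated libraries, the largest change of the list at 2.08 ± 0.14 (adjusted p 0.000162). BIRC3, an inhibitor of apoptosis and ubiquitin ligase, had 2.34, 2.47 and 2.13 TPM in the parent libraries and 9.56, 7.90 and 7.27 TPM in the treated libraries (1.47 ± 0.14, adjusted p 0.00067). None of these 3 genes had overlapping groups.

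Among the subunits, the largest log2 fold changes were those of the non-canonical branch. RELB had 6.83, 6.42 and 6.07 TPM in the parent libraries and 17.3, 17.4 and 18.5 TPM in the treated libraries and NFKB2, the precursor of p52, had 23.5, 20.9 and 22.3 TPM in the parent libraries and 50.8, 50.1 and 46.9 TPM in the treated libraries. Their log2 fold changes were 1.33 ± 0.09 and 1.11 ± 0.07. MAP3K14, the kinase NIK that starts this branch, had 7.09, 4.14 and 4.65 TPM in the parent libraries and 12.5, 13.9 and 10.9 TPM in the treated libraries (1.12 ± 0.18). NFKB1, the precursor of p50, rose by a smaller amount (0.61 ± 0.09, adjusted p 0.00541). RELA, the most abundant subunit at 78.5 TPM in parent cells, was at 0.00 ± 0.06 and REL at 0.16 ± 0.16, neither called. The inhibitor NFKBIE (0.80 ± 0.11), the deubiquitinase CYLD (0.45 ± 0.11), TNFAIP2 (0.44 ± 0.09) and TNIP1 (0.43 ± 0.07) also rose. TNFAIP3, the inhibitor A20, was at 0.59 ± 0.20 and was not called (adjusted p 0.132). Depending on the settings, calls were lost for MAP3K14 (adjusted p 0.0702 with no filter), CYLD (10 settings, adjusted p up to 0.148 without parent library 2), TNFAIP2 (6 settings, adjusted p up to 0.119 with no filter and 0.104 without parent library 3) and TNIP1 (4 settings, adjusted p up to 0.0753 with no filter and 0.0637 without parent library 3). Other settings added a call for TNFAIP3 (adjusted p 0.0332 without parent library 1).

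Promoters of 8 genes that rose are shown, chosen because the motif that NF-kB proteins bind lies near their starts. TRAF1, MAP3K14, TNFAIP2, CXCL8 and CSF2 also rose and had no match in their RefSeq promoters. Of the genes shown, NFKB1 and IL32 had a match in 1 of 2 promoters and NFKB2 in 2 of 3. Each sequence is from RefSeq on GRCh38.p14, read 5′ to 3′ on the strand of the gene, and lies upstream of the start. Matches to the kappaB consensus of 10 bases are in capitals, and matches on opposite strands can overlap in full or by all but 1 base. The IL6 promoter is chr7:22726950-22727199 (plus strand, match at -73 to -64), and the NFKBIA promoter is chr14:35404750-35404999 (minus strand, match at -81 to -72). The other promoters are shown as windows of 60 bases around a match, chr10:102394446-102394505 for NFKB2, chr4:102501285-102501344 for NFKB1, chr11:102317260-102317319 for BIRC3, chr4:73869289-73869348 for CXCL1, chr1:7940879-7940938 (minus strand) for TNFRSF9 and chr16:3065279-3065338 for IL32, on the plus strand unless stated:
IL6: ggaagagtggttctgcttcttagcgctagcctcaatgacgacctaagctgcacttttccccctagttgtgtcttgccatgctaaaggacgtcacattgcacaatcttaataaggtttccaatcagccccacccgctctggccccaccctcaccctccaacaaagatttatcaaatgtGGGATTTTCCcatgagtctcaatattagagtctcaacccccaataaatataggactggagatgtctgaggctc
NFKBIA: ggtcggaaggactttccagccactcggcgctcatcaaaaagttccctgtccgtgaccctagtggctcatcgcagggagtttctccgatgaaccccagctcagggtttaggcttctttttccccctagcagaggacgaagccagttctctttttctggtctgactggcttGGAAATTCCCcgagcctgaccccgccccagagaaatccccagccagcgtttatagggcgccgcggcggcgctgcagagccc
NFKB2: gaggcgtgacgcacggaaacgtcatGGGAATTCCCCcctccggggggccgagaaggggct
NFKB1: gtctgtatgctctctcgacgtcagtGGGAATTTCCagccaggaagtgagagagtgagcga
BIRC3: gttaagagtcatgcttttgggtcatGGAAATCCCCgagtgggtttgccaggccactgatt
CXCL1: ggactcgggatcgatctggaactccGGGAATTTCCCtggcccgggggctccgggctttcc
TNFRSF9: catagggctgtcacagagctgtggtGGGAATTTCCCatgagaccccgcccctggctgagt
IL32: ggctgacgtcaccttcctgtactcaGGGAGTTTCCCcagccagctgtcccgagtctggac
Of the 35116 promoters of 300 bases in the RefSeq set, 3956 (11.3%) hold a match on either strand, and of the 9663 tested genes with a promoter in that set, 1692 (17.5%) do. Among called genes the share was 84 of 346 that rose (24.3%) and 18 of 108 that fell (16.7%). Among the NF-kB, chemokine and interleukin genes, whose lists hold textbook NF-kB targets, it was 9 of the 14 that rose and had a promoter there (64.3%) and 17 of the 31 tested (54.8%). These shares describe letters in a window and no binding was measured.

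Secreted chemokines and interleukins were among the largest rises. Of 9 tested chemokines 4 rose, with a median of 0.82, and of 11 interleukins and colony-stimulating factors 5 rose, with a median of 0.58, and no member of either list fell. CCL2 (ENSG00000108691, chromosome 17, 34255218 to 34257203, GRCh38), which attracts monocytes, had 14.4, 13.1 and 12.5 TPM in the parent libraries and 65.9, 55.5 and 65.5 TPM in the treated libraries. The groups were separated by a wide gap, with a log2 fold change of 2.14 ± 0.09 (adjusted p 2.03e-05). IL6 (ENSG00000136244, chromosome 7, 22725884 to 22732002, GRCh38), a cytokine that signals through STAT3, had 7.36, 6.52 and 6.17 TPM in the parent libraries and 38.1, 34.5 and 28.0 TPM in the treated libraries, and here too the lowest treated library was far above the parent libraries (2.16 ± 0.12, adjusted p 8.28e-05). IL32, an inflammatory cytokine and by far the most abundant of the list, had 278, 317 and 301 TPM in the parent libraries and 765, 709 and 707 TPM in the treated libraries (1.28 ± 0.06, adjusted p 2.8e-05).

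The neutrophil chemokines were present at lower levels. CXCL1 had 5.83, 3.62 and 5.08 TPM in the parent libraries and 14.1, 13.1 and 8.68 TPM in the treated libraries (1.14 ± 0.20) and CXCL8 had 1.21, 0.851 and 1.72 TPM in the parent libraries and 3.44, 3.85 and 3.84 TPM in the treated libraries (1.08 ± 0.18). CXCL16, a transmembrane chemokine, rose by 0.82 ± 0.11 with groups apart. LIF, an IL-6 family cytokine, had 33.6, 19.3 and 21.1 TPM in the parent libraries and 43.7, 43.1 and 38.6 TPM in the treated libraries (0.78 ± 0.18, adjusted p 0.0424). The macrophage factor CSF1 (0.68 ± 0.13) and CSF2 (0.99 ± 0.18) rose as well, CSF2 being a low transcript. CXCL2 had a log2 fold change of 1.39 ± 0.36 and was not called (adjusted p 0.063), and IL11 (-0.12 ± 0.11) and IL15 (0.04 ± 0.09) were not called. Without 1 library the number of called chemokines fell to 2 (without treated library 2) and that of called interleukins to 2 (without treated library 1). Single calls were lost under other settings for CXCL1 (3 settings, adjusted p up to 0.0966 with no filter and 0.0646 without treated library 1), CXCL8 (2 settings, adjusted p up to 0.0602 with no filter and 0.0547 without treated library 2), LIF (7 settings, adjusted p up to 0.171 with no filter and 0.15 without parent library 3), CSF1 (3 settings, adjusted p up to 0.0958 with no filter and 0.0879 without treated library 2) and CSF2 (4 settings, adjusted p up to 0.0644 without treated library 2). CXCL2 (3 settings, lowest adjusted p 0.0192 without treated library 3) gained a call under other settings.

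**Figure D3:**
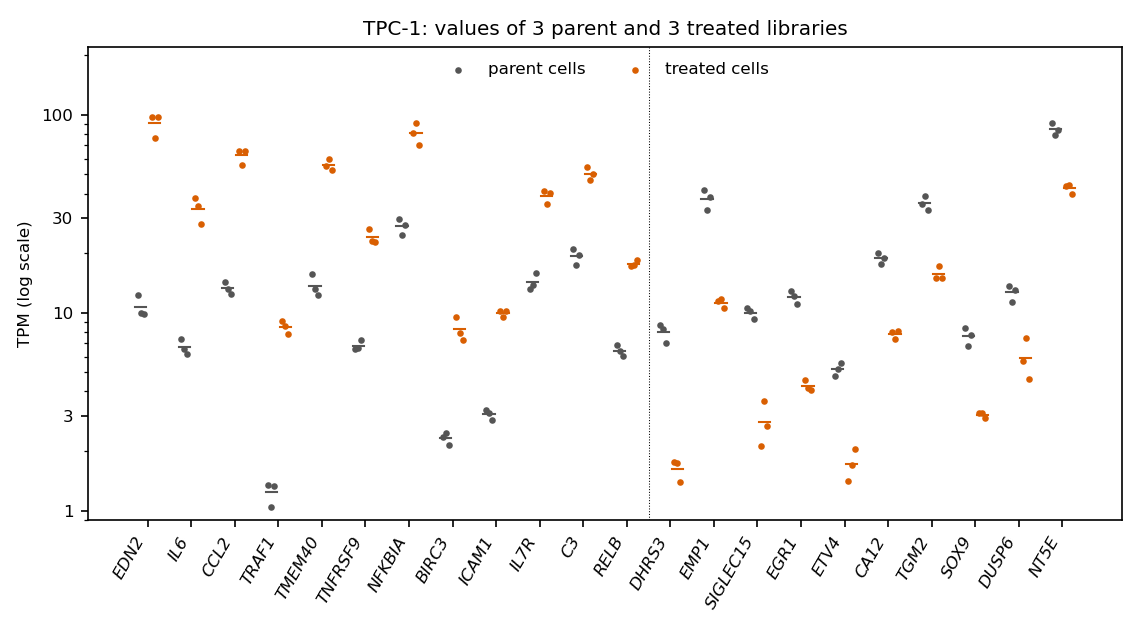
TPM (vertical, log scale) of 22 genes in each of the 3 parent (grey) and 3 treated (orange) TPC-1 libraries, with a bar at the mean of each group. Genes that rose are to the left of the dotted line and genes that fell to the right, and the groups of each gene do not overlap.

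Of 21 cytokine receptors 2 rose and 1 fell, against 3.75% of all tested genes called higher and 1.21% called lower. These 2 shares apply to each list that follows. IL7R, the receptor chain of IL-7 and TSLP, had 13.1, 13.8 and 15.9 TPM in the parent libraries and 41.1, 35.5 and 40.1 TPM in the treated libraries (1.39 ± 0.10, adjusted p 0.000186), so that the groups were well apart. IFNGR2, a chain of the interferon-gamma receptor, had 8.28, 7.06 and 6.59 TPM in the parent libraries and 15.3, 13.8 and 12.7 TPM in the treated libraries (0.85 ± 0.12). IL31RA was the receptor that fell (-0.55 ± 0.13). The shared chain IL6ST of the IL-6 family was at 0.30 ± 0.11 and not called. Among 20 STAT, SOCS and related genes, 3 rose. They included the kinase PIM3, which had 20.2, 17.7 and 16.3 TPM in the parent libraries and 35.5, 32.6 and 25.8 TPM in the treated libraries (0.75 ± 0.13, adjusted p 0.0113), and STAT6 (0.28 ± 0.05), while SOCS3 (0.08 ± 0.12) and STAT3 (0.23 ± 0.08) were not called. Under other settings the call ended for IL31RA (7 settings, adjusted p up to 0.152 without parent library 3), PIM3 (3 settings, adjusted p up to 0.0748 with no filter and 0.0552 without parent library 3) and STAT6 (4 settings, adjusted p up to 0.0833 without a variance trend and 0.0764 without parent library 3).

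TNFRSF9, the co-stimulatory receptor 4-1BB, was the 1 member of 13 tested TNF and TNF receptor superfamily genes that rose. It had 6.52, 6.59 and 7.29 TPM in the parent libraries and 26.4, 23.1 and 22.9 TPM in the treated libraries (1.68 ± 0.10, adjusted p 8.28e-05), and each treated library lay at more than 3 times the parent values. TNFRSF1A, the main TNF receptor, had 147, 128 and 138 TPM in the parent libraries and 118, 107 and 100.0 TPM in the treated libraries and fell (-0.35 ± 0.08). C3, the central complement component, had 21.0, 17.4 and 19.5 TPM in the parent libraries and 54.2, 46.9 and 49.9 TPM in the treated libraries (1.34 ± 0.09, adjusted p 0.000162) and was the 1 called gene of 11 complement and acute phase genes. Of 12 adhesion molecules 4 rose and none fell. ICAM1, which binds leukocyte integrins, had 3.22, 3.11 and 2.87 TPM in the parent libraries and 10.2, 9.46 and 10.2 TPM in the treated libraries (1.43 ± 0.11, adjusted p 0.000388), and MCAM (0.60 ± 0.08), CD82 (0.71 ± 0.13) and PVR (0.36 ± 0.07) rose by less. Calls that ended under other settings were those of TNFRSF1A (6 settings, adjusted p up to 0.132 without parent library 3), CD82 (6 settings, adjusted p up to 0.0999 with no filter and 0.0838 without treated library 1) and PVR (7 settings, adjusted p up to 0.102 without a variance trend and 0.0926 without treated library 1).

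Antigen presentation genes rose in 5 of 19 cases, with a median of 0.29 and no fall. CD74, which escorts MHC class II molecules, had 33.1, 30.7 and 30.7 TPM in the parent libraries and 58.7, 52.5 and 55.0 TPM in the treated libraries (0.80 ± 0.07), and B2M, the light chain of MHC class I, had 965, 859 and 876 TPM in the parent libraries and 1228, 1144 and 1088 TPM in the treated libraries (0.36 ± 0.06). Both groups of CD74 and of B2M were apart. The checkpoint ligand PDCD1LG2 (0.54 ± 0.13) and TAPBP (1.13 ± 0.26) rose too, TAPBP being uncertain because it lies in the MHC region, where reads can be shared between haplotype copies. CD274, the ligand PD-L1, was at 0.03 ± 0.14 and not called. Of 31 interferon-stimulated genes 2 rose, GBP1 (0.47 ± 0.09) and the factor IRF1 (0.46 ± 0.09), and the list's median of 0.09 was close to that of all genes. Leaving out parent library 2 left 1 of the antigen presentation genes called and none of the interferon-stimulated genes. The single genes whose call ended under other settings were B2M (4 settings, adjusted p up to 0.0861 without a variance trend and 0.0677 without parent library 3), PDCD1LG2 (8 settings, adjusted p up to 0.146 without parent library 3), TAPBP (9 settings, adjusted p up to 0.169 with no filter and 0.145 without treated library 2), GBP1 (4 settings, adjusted p up to 0.0765 without treated library 1) and IRF1 (7 settings, adjusted p up to 0.106 without parent library 3).

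EDN2 (ENSG00000127129, chromosome 1, 41478775 to 41484673, GRCh38), a secreted vasoconstrictor peptide of the endothelin family, had the largest log2 fold change of the called genes with a mean of at least 5 TPM in a group. It had 12.3, 9.98 and 9.88 TPM in the parent libraries and 97.3, 76.6 and 97.5 TPM in the treated libraries. The lowest treated value was more than 6 times the highest parent value, with a log2 fold change of 2.96 ± 0.12 (adjusted p 2.03e-05). EDN1, the related peptide, had 1.15, 1.35 and 1.08 TPM in the parent libraries and 6.32, 5.99 and 4.51 TPM in the treated libraries (1.58 ± 0.16, adjusted p 0.00112), at a much lower level. ECE1, the protease that matures endothelins, rose slightly (0.31 ± 0.06), and their receptor EDNRA was at -0.13 ± 0.15 and not called. These were the 3 called genes of 11 endothelin and vasoactive peptide genes. The call was not kept in each setting by ECE1 (7 settings, adjusted p up to 0.11 without parent library 3).

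Of 22 tested ligands of growth factor receptors 6 rose and none fell, with 9 higher and 4 lower at an unadjusted p under 0.05. With median-of-ratios scaling TGFA (-0.42 ± 0.12) and KITLG (-0.37 ± 0.11) were called lower. PDGFB, a ligand of PDGF receptors, had 15.3, 16.1 and 14.3 TPM in the parent libraries and 30.7, 30.4 and 28.6 TPM in the treated libraries (0.93 ± 0.08, adjusted p 0.000461), so that each treated library was close to 2 times the parent level. EFNA1, a ligand of EPH receptors, had 18.0, 11.4 and 15.3 TPM in the parent libraries and 27.7, 28.6 and 27.0 TPM in the treated libraries (0.88 ± 0.14), and the fibroblast growth factor FGF2 had 115, 85.2 and 101 TPM in the parent libraries and 166, 158 and 131 TPM in the treated libraries (0.60 ± 0.12). FGF5 (0.62 ± 0.10), the neuregulin NRG1 (0.45 ± 0.10) and the AXL ligand GAS6 (0.42 ± 0.09) rose by less. Of 17 receptor tyrosine kinases none was called by limma, with 1 above and 1 below 0 at an unadjusted p under 0.05. EGFR had 93.1, 76.0 and 82.3 TPM in the parent libraries and 105, 97.8 and 95.9 TPM in the treated libraries (0.25 ± 0.08, adjusted p 0.112), MET had 106, 85.6 and 87.7 TPM in the parent libraries and 80.1, 70.9 and 74.3 TPM in the treated libraries (-0.30 ± 0.09, adjusted p 0.092), and AXL, the most abundant of them, had 554, 619.7 and 599 TPM in the parent libraries and 625, 556 and 604 TPM in the treated libraries (0.01 ± 0.06). EGFR was called higher without parent library 1, and MET was called lower with median-of-ratios scaling and with the replicate number as a block. ERBB2 was at 0.08 ± 0.07 (adjusted p 0.538). The ligand count was 3 without parent library 2. Ligands whose call ended under other settings were EFNA1 (adjusted p 0.0702 with no filter), FGF2 (6 settings, adjusted p up to 0.126 with no filter and 0.0934 without treated library 1), FGF5 (adjusted p 0.0594 with no filter), NRG1 (9 settings, adjusted p up to 0.142 without parent library 3) and GAS6 (8 settings, adjusted p up to 0.123 without parent library 3).

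RET itself, the target of the drug, had 7.28, 6.92 and 6.93 TPM in the parent libraries and 7.0, 6.79 and 6.78 TPM in the treated libraries, a log2 fold change of -0.03 ± 0.10 (adjusted p 0.889). The drug blocks the kinase and not the gene, and the value does not check the labels. A TPM per gene does not separate fusion from normal transcripts. CCDC6, the partner of RET in the fusion, was below the limit of 1 TPM, between 0.38 and 0.75 TPM over the 6 libraries. GFRA1, the co-receptor through which GDNF reaches RET, had 219, 214 and 217 TPM in the parent libraries and 350.2, 318 and 333 TPM in the treated libraries, a rise of 0.62 ± 0.05 (adjusted p 0.000388) with little spread between libraries. GFRA1 was called in each of the 15 settings, and its TPM, a level per length, was far above that of RET in both groups.

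Genes of the insulin-like growth factor axis moved in both directions, 3 of 14 up and 1 down. IGFBP3, a secreted binding protein and among the most abundant transcripts that changed, had 506, 444 and 471 TPM in the parent libraries and 1128, 1090.0 and 871 TPM in the treated libraries (1.11 ± 0.09, adjusted p 0.000461). IGFBP5, a related binding protein, had 2.33, 2.00 and 2.22 TPM in the parent libraries and 8.79, 6.51 and 9.86 TPM in the treated libraries (1.55 ± 0.16), and STC2, an inhibitor of the protease that frees IGF, had 34.1, 25.3 and 24.7 TPM in the parent libraries and 63.4, 68.6 and 57.2 TPM in the treated libraries (1.15 ± 0.12). For each of these 3 genes the groups were separated by a gap wider than either group. IGF2BP3, an RNA-binding protein, had 115, 125 and 121 TPM in the parent libraries and 81.8, 76.3 and 68.9 TPM in the treated libraries and fell (-0.67 ± 0.07, adjusted p 0.00134). IGFBP7 had a log2 fold change of 0.95 ± 0.25 that was not called (adjusted p 0.0659). Other settings added a call for IGFBP7 (3 settings, lowest adjusted p 0.0052 without parent library 1).

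Targets of the coactivators YAP and TAZ rose in 6 of 22 cases and 1 fell, with a median of 0.24. The secreted protein CCN1 had 461, 398 and 426 TPM in the parent libraries and 752, 758 and 677 TPM in the treated libraries (0.77 ± 0.07), AMOTL2, a scaffold of cell junctions, had 86.5, 79.4 and 75.1 TPM in the parent libraries and 151, 131 and 136 TPM in the treated libraries (0.79 ± 0.07), and NUAK2, a kinase, rose by 0.65 ± 0.08. GADD45A (0.96 ± 0.16), CRIM1 (0.52 ± 0.09) and AJUBA (0.50 ± 0.07) were the others that rose. CCN2, the close relative of CCN1, was at 0.25 ± 0.09 and not called. NT5E, the ectoenzyme CD73 that makes adenosine, had 90.8, 79.3 and 84.1 TPM in the parent libraries and 43.7, 44.1 and 39.7 TPM in the treated libraries with groups far apart (-0.98 ± 0.07, adjusted p 0.000248). The calls that other settings ended were those of GADD45A (3 settings, adjusted p up to 0.0854 with no filter and 0.0526 without parent library 3) and CRIM1 (2 settings, adjusted p up to 0.0749 with no filter).

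Of 23 TGF-beta and BMP genes 3 rose, and 5 did without treated library 3 and 2 without parent library 3. The secreted activin antagonist FSTL3 had 58.5, 51.7 and 48.9 TPM in the parent libraries and 108, 100.5 and 94.3 TPM in the treated libraries (0.92 ± 0.08, adjusted p 0.000513), FSTL1 had 247, 225 and 230.4 TPM in the parent libraries and 387, 377 and 349 TPM in the treated libraries (0.66 ± 0.06) and the BMP antagonist NOG rose by 0.50 ± 0.09. ID3 was at 0.67 ± 0.19 and ID1 at 0.34 ± 0.16, neither called. Collagen genes rose in 4 of 15 cases, with a median of 0.32, and 9 rose without parent library 1 and 1 without parent library 3. COL4A1, of the basement membrane, had 406, 330.4 and 358 TPM in the parent libraries and 589, 547 and 549.6 TPM in the treated libraries (0.63 ± 0.07), and its partner COL4A2 (0.43 ± 0.08), COL7A1 (0.82 ± 0.16) and COL6A2 (0.25 ± 0.05) were the others. Among these genes the call ended under other settings for NOG (2 settings, adjusted p up to 0.0817 without parent library 3), COL4A2 (5 settings, adjusted p up to 0.11 with no filter and 0.0838 without treated library 1), COL7A1 (5 settings, adjusted p up to 0.128 with no filter and 0.0905 without treated library 1) and COL6A2 (8 settings, adjusted p up to 0.122 without parent library 3). ID3 (3 settings, lowest adjusted p 0.00398 without treated library 3) and ID1 (adjusted p 0.0232 without treated library 3) gained a call under other settings.

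Matrix and adhesion genes changed in both directions. Of 22 integrin, laminin and matrix genes 4 rose, among them the matrix glycoprotein SPARC, which had 524, 476 and 503 TPM in the parent libraries and 731, 701 and 707 TPM in the treated libraries (0.51 ± 0.05, adjusted p 0.00067), the glycoprotein THBS1 (0.62 ± 0.09) and the integrin chain ITGAV (0.55 ± 0.11). The glycoprotein TNC had 50.5, 35.5 and 38.6 TPM in the parent libraries and 25.2, 25.7 and 24.6 TPM in the treated libraries and fell (-0.69 ± 0.12), as did the integrin chain ITGA6 (-0.49 ± 0.11), the 2 falls of that list. Of 19 proteases and inhibitors 4 rose and 2 fell. The proteases ADAMTS1 (0.62 ± 0.11), CTSS (0.65 ± 0.15) and MMP24 (0.37 ± 0.09) rose, and the collagenase MMP1 (-0.47 ± 0.11) and the inhibitor TIMP1 (-0.38 ± 0.07) fell. In the prostaglandin list of 13 the synthase PTGIS rose (0.58 ± 0.08), and PTGS1 (-0.69 ± 0.16), AKR1C3 (-0.60 ± 0.11) and PTGES3 (-0.25 ± 0.05) fell. Settings that ended a call did so for THBS1 (2 settings, adjusted p up to 0.0732 with no filter), ITGAV (6 settings, adjusted p up to 0.127 with no filter and 0.105 without treated library 1), TNC (3 settings, adjusted p up to 0.0828 with no filter and 0.0563 without treated library 1), ITGA6 (7 settings, adjusted p up to 0.143 without parent library 3), ADAMTS1 (2 settings, adjusted p up to 0.083 with no filter), CTSS (9 settings, adjusted p up to 0.139 without parent library 3), MMP24 (10 settings, adjusted p up to 0.145 without parent library 2), MMP1 (6 settings, adjusted p up to 0.18 with no filter and 0.148 without parent library 3), TIMP1 (6 settings, adjusted p up to 0.0807 without a variance trend and 0.0767 without parent library 3), PTGS1 (9 settings, adjusted p up to 0.155 without parent library 3), AKR1C3 (4 settings, adjusted p up to 0.0615 without treated library 2) and PTGES3 (7 settings, adjusted p up to 0.142 without parent library 3).

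Of 7 tested thyroid genes 2 rose. THRB, a thyroid hormone receptor, had 15.9, 13.4 and 13.1 TPM in the parent libraries and 27.7, 22.9 and 27.0 TPM in the treated libraries (0.83 ± 0.11, adjusted p 0.00351). PAX8 had 230.0, 154 and 186 TPM in the parent libraries and 285, 273 and 256 TPM in the treated libraries (0.53 ± 0.12, adjusted p 0.0458), and its parent libraries were spread over a wider range than its treated ones. FOXE1 (0.02 ± 0.11) and HHEX (-0.41 ± 0.17) were not called, and the thyroglobulin, TSH receptor and iodide transporter genes had means below 1 TPM. Keratins moved in both directions, and 3 of 19 epithelial and mesenchymal genes rose and 1 fell. KRT81 had 1192, 1157 and 1214 TPM in the parent libraries and 1726, 1829 and 1666 TPM in the treated libraries (0.55 ± 0.05, adjusted p 0.000467), and KRT7 (0.38 ± 0.06) and KRT80 (0.42 ± 0.07) rose, whereas KRT18 had 1165, 1370.0 and 1274 TPM in the parent libraries and 926, 927 and 942 TPM in the treated libraries and fell (-0.44 ± 0.06). KRT81 has close relatives among the hair keratins, with which reads can be shared, so its value is uncertain. KRT8, the partner of KRT18, was at -0.17 ± 0.04 and not called. The mesenchymal filament VIM (-0.02 ± 0.05), CDH2 (0.12 ± 0.06) and the factors SNAI2 (-0.20 ± 0.17) and ZEB1 (-0.18 ± 0.11) were not called. Under at least 1 other setting the call ended for PAX8 (7 settings, adjusted p up to 0.179 with no filter and 0.148 without treated library 1) and KRT7 (2 settings, adjusted p up to 0.0649 with no filter). Other settings added a call for KRT8 (5 settings, lowest adjusted p 0.0417 with mitochondrial transcripts removed).

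**Figure D4:**
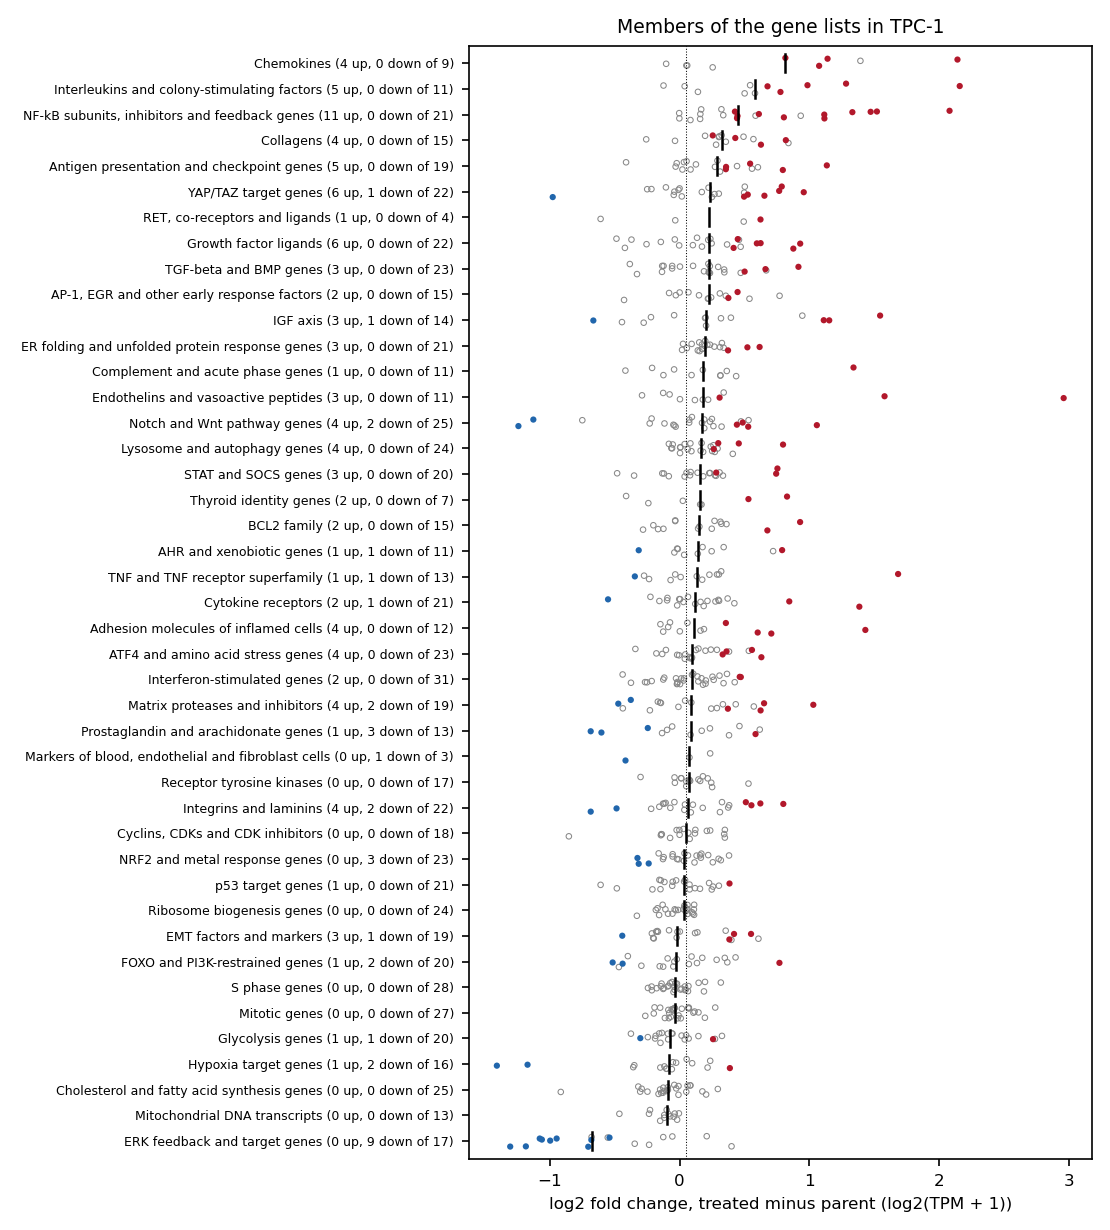
Log2 fold change (horizontal) of the tested members of 43 gene lists in TPC-1, ordered by list median (black bar). Red points rose, blue points fell and open points were not called, the dotted line marks the median of all genes (0.05), and the ERK list lies furthest to the left with a median of -0.68.

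No gene of the cell cycle lists was called. Of 28 S phase genes, 27 mitotic genes and 18 cyclins, CDKs and CDK inhibitors none rose or fell, and their medians were -0.04, -0.04 and 0.05. With median-of-ratios scaling 1 S phase gene and 1 mitotic gene were called lower, and without parent library 1 an S phase gene was called higher. At an unadjusted p below 0.05, 5 S phase genes were lower and none higher, and for the mitotic genes 3 were lower and 2 higher. MKI67, the marker of cycling cells, had 92.2, 89.1 and 91.3 TPM in the parent libraries and 91.6, 79.9 and 92.3 TPM in the treated libraries (-0.05 ± 0.07, adjusted p 0.719), and the groups overlapped. RRM2, a subunit of ribonucleotide reductase, had 275, 284 and 270.3 TPM in the parent libraries and 275, 279 and 254 TPM in the treated libraries (-0.04 ± 0.05), and CCNB1, the mitotic cyclin, had 289, 287 and 289 TPM in the parent libraries and 292, 291 and 259.6 TPM in the treated libraries (-0.04 ± 0.06). The kinase CDK4 had 381, 372 and 371 TPM in the parent libraries and 338, 335 and 345 TPM in the treated libraries (-0.14 ± 0.04, adjusted p 0.0929), without overlap and not called. The inhibitor CDKN1A was at -0.15 ± 0.11 and CDKN1C, a low transcript, at -0.85 ± 0.30 (adjusted p 0.149).

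Among 15 BCL2 family genes 2 rose. BCL2A1, an anti-apoptotic member and known NF-kB target, had 6.64, 5.23 and 5.81 TPM in the parent libraries and 12.7, 12.9 and 10.7 TPM in the treated libraries (0.93 ± 0.12, adjusted p 0.00383). BMF, a pro-apoptotic member, had 7.19, 5.63 and 6.6 TPM in the parent libraries and 9.12, 10.8 and 13.1 TPM in the treated libraries (0.68 ± 0.15). BCL2L11, which encodes the pro-apoptotic BIM, had 4.06, 4.77 and 4.56 TPM in the parent libraries and 3.33, 4.49 and 2.80 TPM in the treated libraries (-0.28 ± 0.17, adjusted p 0.371) with overlapping groups, and MCL1 was at -0.13 ± 0.06. Of 21 p53 targets only PHLDA3 rose (0.38 ± 0.07), a share close to the 3.75% of all tested genes called higher. Of 20 genes that FOXO factors induce or PI3K restrains 1 rose and 2 fell. CITED2, a transcriptional regulator, had 132, 112 and 124 TPM in the parent libraries and 225, 215 and 189 TPM in the treated libraries (0.77 ± 0.08). TXNIP, which binds thioredoxin, had 79.6, 70.5 and 66.0 TPM in the parent libraries and 53.4, 49.1 and 55.8 TPM in the treated libraries (-0.44 ± 0.08), and the pseudokinase TRIB3 fell (-0.52 ± 0.09). Calls ended under other settings for BMF (6 settings, adjusted p up to 0.13 with no filter and 0.116 without parent library 2), PHLDA3 (5 settings, adjusted p up to 0.0611 without parent library 3), TXNIP (5 settings, adjusted p up to 0.0828 with no filter and 0.0695 without treated library 2) and TRIB3 (adjusted p 0.0597 without parent library 3).

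Notch and Wnt genes included 2 of the larger falls. HES1, the Notch target repressor, had 3.09, 3.24 and 3.31 TPM in the parent libraries and 0.864, 1.15 and 0.786 TPM in the treated libraries (-1.13 ± 0.16, adjusted p 0.00553), while HES4, another member of the HES family, had 11.3, 7.53 and 10.7 TPM in the parent libraries and 20.7, 22.9 and 20.3 TPM in the treated libraries and rose (1.06 ± 0.14, adjusted p 0.00383). The ligand WNT7A had 16, 16 and 15.6 TPM in the parent libraries and 4.89, 4.64 and 9.88 TPM in the treated libraries. Treated library 3 was well above the other treated libraries and still below the parent libraries (-1.24 ± 0.23, adjusted p 0.0161). The secreted Wnt modulators DKK3 (0.53 ± 0.06) and DKK1 (0.44 ± 0.10) and the receptor FZD1 (0.49 ± 0.11) rose, and 4 of 25 genes were up and 2 down. Other settings took away the call of WNT7A (6 settings, adjusted p up to 0.108 with no filter and 0.0686 without treated library 1), DKK1 (8 settings, adjusted p up to 0.167 without parent library 3) and FZD1 (8 settings, adjusted p up to 0.148 without parent library 3).

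In the lists of stress and metabolism below, the shares called can be read against 3.75% of all genes called higher and 1.21% called lower. Of 21 genes for folding in the endoplasmic reticulum each had a log2 fold change above 0, with a median of 0.19. PDIA6 and ERN1 were below 0 with median-of-ratios scaling. Of the 21, 3 rose, against 5 without parent library 1 and 2 without parent library 2. The 3 were the transcription factor XBP1 with 70.0, 68.2 and 67.6 TPM in the parent libraries and 103, 94.9 and 99.6 TPM in the treated libraries (0.52 ± 0.06), the chaperone HYOU1 (0.37 ± 0.06) and DNAJB9 (0.62 ± 0.15). Among 23 ATF4 and amino acid genes 4 rose. CEBPB, a transcription factor, had 7.82, 8.01 and 7.38 TPM in the parent libraries and 12, 13.5 and 12.1 TPM in the treated libraries (0.63 ± 0.10), and the lipoprotein receptor VLDLR (0.56 ± 0.12) and both chains of an amino acid transporter, SLC3A2 (0.36 ± 0.06) and SLC7A5 (0.33 ± 0.05), rose as well. ATF4 itself was at 0.10 ± 0.06 and ASNS at 0.00 ± 0.10, neither called. None of 25 cholesterol and fatty acid genes was called (unadjusted p below 0.05 for 2 higher and 3 lower), with the desaturase SCD at -0.92 ± 0.24 (adjusted p 0.0653). These calls were incomplete over the settings for DNAJB9 (8 settings, adjusted p up to 0.16 without parent library 3), VLDLR (6 settings, adjusted p up to 0.124 with no filter and 0.122 without parent library 3), SLC3A2 (2 settings, adjusted p up to 0.0688 without a variance trend) and SLC7A5 (2 settings, adjusted p up to 0.0747 without a variance trend). SCD (3 settings, lowest adjusted p 0.00191 without treated library 3) gained a call under other settings.

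In the glycolysis list of 20 the kinase PFKP rose (0.26 ± 0.05) and LDHA, lactate dehydrogenase A, fell. LDHA had 7340.0, 7969 and 7293 TPM in the parent libraries and 6273, 5458 and 6626 TPM in the treated libraries (-0.30 ± 0.07, adjusted p 0.0495). Among 16 hypoxia targets the carbonic anhydrase CA12 had 20.1, 17.6 and 19.0 TPM in the parent libraries and 8.01, 7.34 and 8.09 TPM in the treated libraries (-1.17 ± 0.10, adjusted p 0.000395), the secreted lipase inhibitor ANGPTL4 had 2.95, 2.61 and 2.68 TPM in the parent libraries and 0.372, 0.545 and 0.321 TPM in the treated libraries (-1.41 ± 0.18), and P4HA2 rose (0.39 ± 0.06). For CA12 and ANGPTL4 the highest treated library was far below the lowest parent library. Of 23 NRF2 and metal response genes 3 fell: NQO1 with 805, 821 and 803 TPM in the parent libraries and 644, 649 and 658 TPM in the treated libraries (-0.32 ± 0.04), HMOX1 (-0.33 ± 0.07) and the ferritin chain FTL (-0.24 ± 0.06). The AHR list of 11 holds NQO1 as well, and its 1 rise was UGT1A6 (0.79 ± 0.18), a low transcript that shares exons with other UGT1A genes and is uncertain. Of 24 lysosome and autophagy genes 4 rose, GABARAPL1 (0.80 ± 0.14), SQSTM1 (0.46 ± 0.09), NPC2 (0.30 ± 0.07) and CTSB (0.26 ± 0.04), and 1 did with median-of-ratios scaling or without treated library 1. Other settings removed the call from PFKP (8 settings, adjusted p up to 0.143 without parent library 3), LDHA (10 settings, adjusted p up to 0.219 with no filter and 0.167 without parent library 2), NQO1 (adjusted p 0.0522 without a variance trend), HMOX1 (8 settings, adjusted p up to 0.105 without parent library 2), FTL (10 settings, adjusted p up to 0.199 with no filter and 0.171 without parent library 3), UGT1A6 (9 settings, adjusted p up to 0.129 without parent library 2), GABARAPL1 (2 settings, adjusted p up to 0.0717 with no filter and 0.0575 without treated library 1), SQSTM1 (7 settings, adjusted p up to 0.125 with no filter and 0.0993 without parent library 2), NPC2 (7 settings, adjusted p up to 0.153 without parent library 3) and CTSB (3 settings, adjusted p up to 0.102 without a variance trend and 0.0685 without parent library 3).

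None of the 13 mitochondrial transcripts was called, and each had a log2 fold change below 0 (median -0.10, with 2 at an unadjusted p under 0.05). Without parent library 1, 1 of them was called lower. None of 24 ribosome biogenesis genes was called (median 0.03, with 4 lower at an unadjusted p under 0.05), and 1 was called lower with median-of-ratios scaling. The ribosomal protein genes, grouped after their values were seen, had 72 of 78 log2 fold changes below 0 (median -0.11), with 4 called lower and none higher. None of the 4 was called without parent library 2, without parent library 3, without treated library 1 or 2, or with median-of-ratios scaling. RPS3 had 4281, 4633 and 4187 TPM in the parent libraries and 3507, 3662 and 3879.8 TPM in the treated libraries (-0.25 ± 0.05, adjusted p 0.0395), and RPS3A (-0.25 ± 0.06), RPL18 (-0.26 ± 0.06) and RPL5 (-0.18 ± 0.04) were also called. Ribosomal protein genes have many pseudogene copies with which reads can be shared, so these values are uncertain. Over all settings the call was lost for RPS3 (9 settings, adjusted p up to 0.181 with no filter and 0.13 without parent library 2), RPS3A (8 settings, adjusted p up to 0.16 with no filter and 0.134 without parent library 3) and RPL18 (7 settings, adjusted p up to 0.149 without a variance trend and 0.119 without parent library 2). RPL5 lost its call in the settings named above as well, and its other settings are not given.

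Outside these roles, a large rise was that of TMEM40, a transmembrane protein. It had 15.7, 13.2 and 12.2 TPM in the parent libraries and 55.3, 59.6 and 52.9 TPM in the treated libraries (1.96 ± 0.10, adjusted p 4.3e-05), and the groups were far apart. Of the 15 largest rises 3 were identifiers without a gene name, among them ENSG00000232326 (2.49 ± 0.35) and ENSG00000230108 (1.74 ± 0.16). Another setting ended the call of ENSG00000232326 (adjusted p 0.0565 with no filter).

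The largest fall among genes of at least 5 TPM was that of DHRS3 (ENSG00000162496, chromosome 1, 12567910 to 12617731, GRCh38), a reductase that turns retinal into retinol. It had 8.67, 8.22 and 7.0 TPM in the parent libraries and 1.76, 1.73 and 1.39 TPM in the treated libraries (-1.77 ± 0.14, adjusted p 0.000388), so that the groups were widely separated. EMP1, an epithelial membrane protein, had 41.8, 32.8 and 38.4 TPM in the parent libraries and 11.4, 11.7 and 10.6 TPM in the treated libraries (-1.65 ± 0.10, adjusted p 9.81e-05). SIGLEC15, a sialic acid-binding receptor, had 10.6, 10.1 and 9.29 TPM in the parent libraries and 2.12, 3.56 and 2.69 TPM in the treated libraries (-1.56 ± 0.16). TGM2, a transglutaminase, had 35.3, 38.9 and 33.1 TPM in the parent libraries and 15, 17.2 and 15 TPM in the treated libraries (-1.14 ± 0.09), and the transcription factor SOX9 had 8.34, 6.82 and 7.75 TPM in the parent libraries and 3.11, 3.10 and 2.93 TPM in the treated libraries (-1.09 ± 0.13). In each of these 5 genes the highest treated value was below the lowest parent value by a wide margin. The organic anion transporter SLCO4A1 (-1.05 ± 0.15), the rhomboid RHBDL3 (-1.01 ± 0.16) and the lipolysis inhibitor G0S2 (-1.0 ± 0.11) also fell. For 2 genes of this paragraph other settings ended the call, SLCO4A1 (adjusted p 0.0502 with no filter) and RHBDL3 (adjusted p 0.0643 with no filter).

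By change in TPM, the genes named are abundant ones, with log2 fold changes from small to above 1 (IGFBP3, given with the IGF axis). The actins ACTB, with 8613, 8426 and 8577 TPM in the parent libraries and 10062, 11950.0 and 9991 TPM in the treated libraries (0.32 ± 0.07), and ACTG1 (0.22 ± 0.05), the myosin light chain MYL6 (0.20 ± 0.04) and the glutathione transferase GSTP1 (0.43 ± 0.04) rose. Actin genes have pseudogene copies, so their values are uncertain. AKR1B1, aldose reductase, had 939.9, 909 and 858 TPM in the parent libraries and 1412, 1561 and 1798 TPM in the treated libraries (0.81 ± 0.08, adjusted p 0.000905), and its lowest treated library was well above the parent libraries. HMGA1, an architectural chromatin protein, had 642, 682 and 642 TPM in the parent libraries and 470.1, 429 and 452 TPM in the treated libraries and fell (-0.54 ± 0.05, adjusted p 0.000634). The calls that depended on the setting were those of ACTB (8 settings, adjusted p up to 0.2 with no filter and 0.121 without parent library 3), ACTG1 (9 settings, adjusted p up to 0.305 with median-of-ratios scaling and 0.173 without parent library 3) and MYL6 (9 settings, adjusted p up to 0.311 with median-of-ratios scaling and 0.17 without parent library 3).

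The same treatment was given to LC-2/ad cells, and the difference between the lines was tested as the TPC-1 log2 fold change minus that of LC-2/ad in a limma fit of all 12 libraries, which share no controls between lines. Of 11996 genes tested there 36.6% differed, and in LC-2/ad alone 55% of genes were called, so that differences are frequent in general. For the genes of largest change in TPC-1 and the genes of interest, 49 could be tested and 36 differed. The choice by TPC-1 change enters the difference, so this share does not compare with that of all genes. The ERK genes DUSP6 and ETV4 fell less in TPC-1. DUSP6 had a log2 fold change of -3.54 ± 0.09 in LC-2/ad, a difference of 2.54 ± 0.19 (adjusted p 6.6e-07), and ETV4 of -2.94 ± 0.11 (difference 1.75 ± 0.17, adjusted p 6.63e-06). In LC-2/ad the mean of DUSP6 went from 159.5 to 12.9 TPM and that of ETV4 from 46.0 to 5.16 TPM. TPC-1 parent cells had far less of both transcripts than LC-2/ad parent cells, and the log2(TPM + 1) scale understates changes at low levels. EGR1 was at -1.41 ± 0.07 in LC-2/ad, and its difference of 0.11 ± 0.12 was not called (adjusted p 0.509). MKI67 was at -1.74 ± 0.06 in LC-2/ad (difference 1.69 ± 0.09, adjusted p 4.92e-08).

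For IL6 and CCL2 the TPC-1 response was the higher one. IL6 fell in LC-2/ad (-0.51 ± 0.11) and rose in TPC-1 (difference 2.67 ± 0.16, adjusted p 1.13e-07), and CCL2 was at 0.14 ± 0.09 in LC-2/ad (difference 2.01 ± 0.13, adjusted p 2.91e-07). NFKBIA rose in both lines, by 0.79 ± 0.04 in LC-2/ad, and more in TPC-1 (difference 0.73 ± 0.12, adjusted p 0.00048). EDN2 rose from 1.16 ± 0.468 to 3.55 ± 0.900 (SD, n = 3) TPM in LC-2/ad (1.08 ± 0.21, difference 1.88 ± 0.25, adjusted p 7.7e-05). At these low levels the log2(TPM + 1) scale understates the LC-2/ad rise, which enlarges the EDN2 difference. DHRS3 rose in LC-2/ad (0.63 ± 0.04, difference -2.40 ± 0.12, adjusted p 2.98e-08), and AKR1B1 fell there (-0.61 ± 0.06, difference 1.42 ± 0.11). ERBB2 rose in LC-2/ad (0.89 ± 0.04) and was not called in TPC-1 (difference -0.81 ± 0.07, adjusted p 3.2e-06). RET rose in LC-2/ad, from 16 ± 0.422 to 21.4 ± 0.683 (SD, n = 3) TPM (0.40 ± 0.06, difference -0.43 ± 0.10, adjusted p 0.00467). For PAX8, KRT7, NT5E and EDN1 no difference between the lines was called, with differences of 0.00 ± 0.17, -0.09 ± 0.07, -0.10 ± 0.08 and 0.34 ± 0.17. EDN1 was low in TPC-1 parent cells, where the log2(TPM + 1) scale understates a change. Its TPC-1 log2 fold change was 1.58 here and up to 2.13 over the other settings. The EDN1 difference therefore does not show an equal response of the lines.

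**Figure D5:**
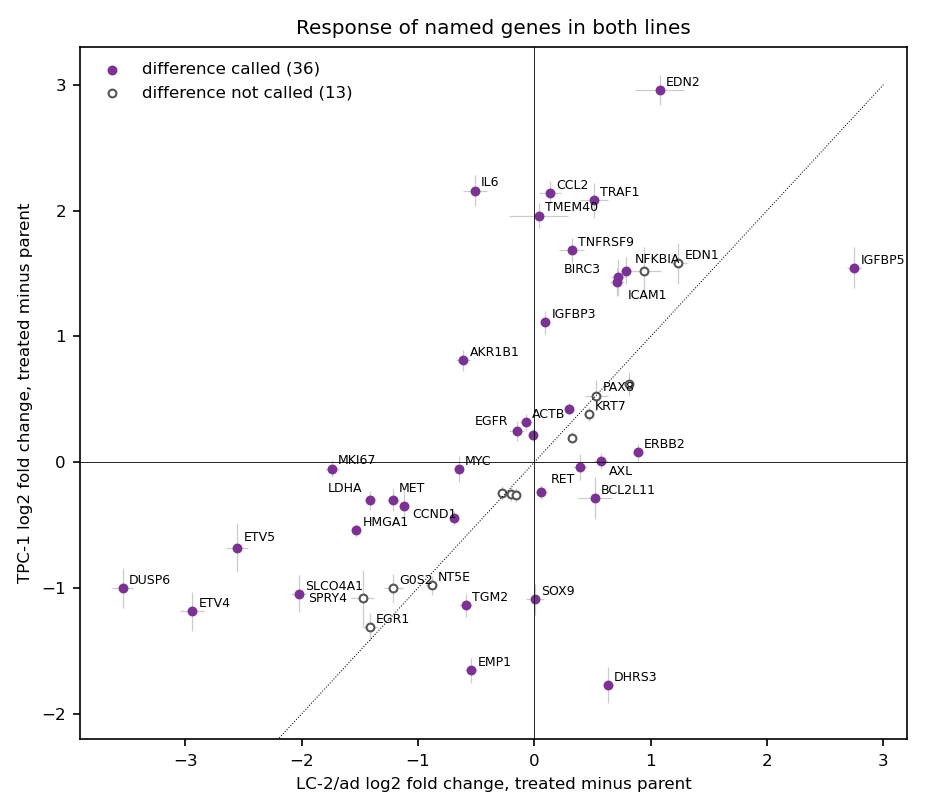
Log2 fold change in TPC-1 (vertical) against LC-2/ad (horizontal) for the 49 genes with a test of the difference, with SE bars and a dotted line of equal response. Filled points (36) had a called difference and open points (13) did not, and IL6, CCL2 and DHRS3 lie far from the line.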

How the data were processed

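RNA of the 6 TPC-1 and 6 LC-2/ad libraries was sequenced, and the authors deposited 1 table of TPM per line, with 37247 Ensembl gene identifiers and no counts, so that depth is unknown and no counting error can be given. Per the submitters' processing notes, bcl2fastq 2.20.0, Salmon and GRCh38 were named, with no role for each. The annotation, and how reads were assigned to overlapping, antisense or near-identical genes, are not given in the sources used here. Symbols and coordinates come from GENCODE 29 (34620 identifiers matched) and promoters from RefSeq (GRCh38.p14). No column was left unused (0).

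Groups and replicate numbers follow the labels. For each gene with a mean TPM of at least 1, log2(TPM + 1) was fitted with limma 3.58.1 (R 4.3.3; lmFit, eBayes with a variance trend), Benjamini-Hochberg adjusted over all tested genes, threshold 0.05. This scale understates the change of low genes. Differences between lines came from the interaction of line and treatment over 12 libraries. The fits were tested on simulated data with independent noise for each gene. The simulation held no shift shared by a whole library, so it does not cover such shifts. Single values were compared with exact two-sided permutation tests.

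The members, the 43 gene lists and the tests were chosen with earlier results of these data known, and so support nothing by their choice. Genes are named by a rule: the 15 largest rises and falls among called genes with a mean of at least 5 TPM in a group and no overlap, the 8 largest rises and falls in TPM, up to 6 called members of each list (or its most abundant ones where none was called), and the genes RET, CCDC6, DUSP6, SPRY4, ETV4, ETV5, EGR1, CCND1, MYC, MKI67, IL6, CCL2, EDN2, NFKBIA, IGFBP3, EGFR, ERBB2, MET, AXL, BCL2L11 and PAX8. Other members are given to show the rest of a list and were picked after their values were seen. A few genes under this rule are not reported here. The 15 alternatives were pseudocounts of 0.1 and 5, no filter, a stricter filter of 5 TPM, scaling by the median of ratios, mitochondrial transcripts removed, no variance trend, a replicate block, each of 6 libraries left out, and protein-coding genes only, the last added after the data were seen.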

Additional observations from a re-analysis of the deposited data

Results flagged for a closer look

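The response differed between TPC-1 and LC-2/ad for 36 of the 49 genes tested, by limma's test of the difference (adjusted p below 0.05), and 36.6% of all genes tested in both lines differed. The 49 are genes of the largest change in TPC-1 and genes of interest. That change is part of the difference tested, so the share among them does not compare with that of all genes. Each value is the TPC-1 log2 fold change minus that of LC-2/ad. For genes of ERK signalling, growth and the cell cycle the difference was above 0 in each called case, namely DUSP6 (2.54), ETV5 (1.87), ETV4 (1.75), MKI67 (1.69), CCND1 (0.78) and MYC (0.59), so that TPC-1 values were lower by less or not called. DUSP6 and ETV4 had far lower TPM in TPC-1 parent cells than in LC-2/ad parent cells. NF-kB, cytokine and secreted genes had differences above 0 for IL6 (2.67), CCL2 (2.01), EDN2 (1.88), TRAF1 (1.57), TNFRSF9 (1.36), BIRC3 (0.76), NFKBIA (0.73), ICAM1 (0.72) and IGFBP3 (1.01) and below 0 for IGFBP5 (-1.20). Receptor tyrosine kinases fell on both sides, with MET (0.91) and EGFR (0.40) above 0 and ERBB2 (-0.81), AXL (-0.56) and RET (-0.43) below 0. Among the other genes differences above 0 were those of TMEM40 (1.92), AKR1B1 (1.42), LDHA (1.11), HMGA1 (0.99), SLCO4A1 (0.98), ACTB (0.39), KRT18 (0.25), ACTG1 (0.22) and GSTP1 (0.13). Differences below 0 were those of DHRS3 (-2.40), EMP1 (-1.11), SOX9 (-1.10), BCL2L11 (-0.80), TGM2 (-0.55) and FTL (-0.30). Of the 36, 26 lay above 0 and 10 below. IL6, AKR1B1 and DHRS3 were called in both lines in opposite directions. For 13 genes no difference was called, and 4 could not be tested, with a mean below 1 TPM in LC-2/ad. What sets the lines apart was not tested.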

How the results depend on the processing

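Of the 636 genes called in TPC-1 (481 higher, 155 lower), no filter on TPM left 272 (203 and 69), with more genes tested, and no variance trend left 356 (266 and 90). With median-of-ratios scaling 254 genes were lower. Calls of at least 1 on the log2 scale numbered 79, and 19 with a pseudocount of 5 (402 for the difference between lines, against 752) and 47 with a mean TPM of at least 5. Without 1 library the calls ranged from 292 to 815 (222 to 676 higher, 70 to 139 lower), those of at least 1 on the log2 scale from 70 to 117, the differences between lines from 3895 to 4273 (2336 to 2735 above and 1503 to 1795 below 0, 740 to 794 of at least 1), and the difference in mitochondrial share from -0.93 to -0.36 percentage points. No pairing by replicate number was seen: deviations of same-numbered libraries correlated at 0.05, -0.03 and 0.04, and not each library correlated best with its own number. With 3 libraries per group this check is weak and cannot exclude a pairing. With the replicate block 542 genes were called (426 and 116), and 4227 differences. Among values of the 170 genes named by the rule, over the settings run, 0 reversed, 441 lost the call, 4 gained it and 2078 kept their side of the threshold. Genes outside the rule are not in these counts. Of 148 named genes called, 66 were called in each setting and 82 in each fit without 1 library. The causes of these shifts were not tested. Depth is unknown, and the SE grew from a median of 0.06 at 50 TPM or more to 0.19 at 1 to 5 TPM, which limits calls among low genes.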
